A study of Mus musculus with 18 samples.

Results

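The comparison described here is LPS+MIC-1 against LPS in RAW264.7 cells, a mouse macrophage-like cell line. It takes 6 of the 18 RNA-seq libraries of the series, 3 labelled LPS and 3 labelled LPS+MIC-1, with the 3 control libraries of the same cells as the baseline, so 9 libraries in all. Genes with a mean FPKM above 1 over these 9 libraries were kept, 9905 of the 21441 in the table. LPS (lipopolysaccharide) is the outer-membrane component of Gram-negative bacteria that macrophages sense as a sign of infection. MIC-1 is moringa isothiocyanate-1, an electrophilic isothiocyanate from the seeds of Moringa oleifera. It was used at 10 µM in these cultures. The labels of all groups give wild-type C57BL/6, which is the strain of the study's mice, and attach the doses of its mouse experiment. Neither the strain nor the doses were taken here as properties of the cultured cells. The LPS concentration and the time of the sequenced cultures were not given in the sources used here. RAW264.7 is a single virus-transformed line and stands for macrophages only as such.

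The library here called LPS 2 stood apart from the other LPS libraries and was read separately throughout. Library numbers follow the order of columns within each treatment. The column headers carry no replicate number, so these numbers were not matched to the replicates in the sample titles. Over the tested genes, the SD of log2 differences between LPS 2 and control 2 was 0.298, against 1.21 to LPS 1 and 1.21 to LPS 3, which differed from each other by 0.402. Control 1 and 3 differed by 0.279 and LPS+MIC-1 1 and 3 by 0.324, whereas LPS+MIC-1 2 was 0.452 from its nearest library. Values are therefore given first for 8 libraries, with LPS 1 and 3, and then for all 9. The summed FPKM, in units of 1000, was 1138 in LPS 1 and 1133 in LPS 3, 598 in LPS 2, and 557 to 652 in the other libraries. Depth, estimated from the spacing of low values, was 19.0 to 24.6 M reads per library, which is an order of magnitude and not a count. Macrophage markers summed to 11295 to 13231 FPKM in control, 13266 to 17656 in LPS and 11951 to 12266 in LPS+MIC-1 libraries, with 6 of 8 markers in the table. Of the other lineages, hepatocyte markers summed to 3.11 to 15.1 FPKM over all libraries and lymphocyte, fibroblast, epithelial, endothelial and neutrophil markers to at most 2.69, with Epcam, Krt19 and Tek at 0 in every library. In bulk RNA, fewer cells of a kind and less RNA per cell cannot be told apart.

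LPS binds Cd14 and the Tlr4-Ly96 receptor, and the adaptors Myd88 and Ticam1 relay the signal to NF-kB, to MAP kinases and to interferon regulatory factors. Macrophages answer with early cytokines and chemokines, then with genes that depend on secreted type I interferon, and with a shift of metabolism and a stop in proliferation. Electrophiles such as isothiocyanates modify cysteines of Keap1, which frees the transcription factor Nrf2 to switch on genes of glutathione and NADPH supply.

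Values were compared on log2(FPKM + 0.5) with limma, and a gene was called where its adjusted p was below 0.01 and its log2FC was above 1 in size. Over 8 libraries 1121 genes were higher with LPS+MIC-1 (11.3% of the tested genes) and 1189 were lower (12%). LPS itself, against control, raised 1610 genes (16.3%) and lowered 1776 (17.9%). LPS+MIC-1 differed from control by 748 genes higher (7.55%) and 812 lower (8.2%). The direction of many small differences depended on the scale. On the deposited scale the median log2FC of LPS+MIC-1 against LPS was 0.01, and with every library set to the same summed FPKM it was 0.74, with 3573 genes called higher and 270 lower. Quantile normalization, in turn, called 939 higher and 907 lower. Changes below are on the deposited scale. Equal-sum values are given beside each gene group and are to be read against the 0.74 by which that scale places all genes. Counts called in a gene list are to be read against 11.3% higher and 12% lower of all tested genes. On the equal-sum scale they stand against 3573 higher and 270 lower of 9905 genes. Genes named outside the naming rule given under processing were chosen after their values were seen.

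The 1610 LPS-raised genes divided unequally. With LPS+MIC-1, 846 of them (52.5%) fell, 37 (2.30%) rose further, and 400 (24.8%) stayed, meaning that the 95% interval of their log2FC lay inside -1 to 1. The remaining 327 were undecided. Of the 1776 LPS-lowered genes, 708 (39.9%) rose, 4 fell further, 586 stayed and 478 were undecided. A further 376 genes rose and 339 fell that LPS had not changed by this threshold. LPS 1 and 3 enter both comparisons behind these classes, which are therefore a description. The comparison of LPS+MIC-1 with control uses no LPS library. In it, 731 of the 846 genes that fell (86.4%) were not called different from control, 97 were above it and 18 below. Of the 708 that rose, 636 (89.8%) were not called different from control and 64 were below. Among the 400 that stayed, 200 were called above control. Of all tested genes, 7.55% were called above control and 8.2% below, so most genes of any kind were not called. The lack of a call therefore does not show a return to the control level. The number that rose further was 21 without LPS 3, and the number that fell further was 7 without LPS+MIC-1 2.

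**Figure D1:**
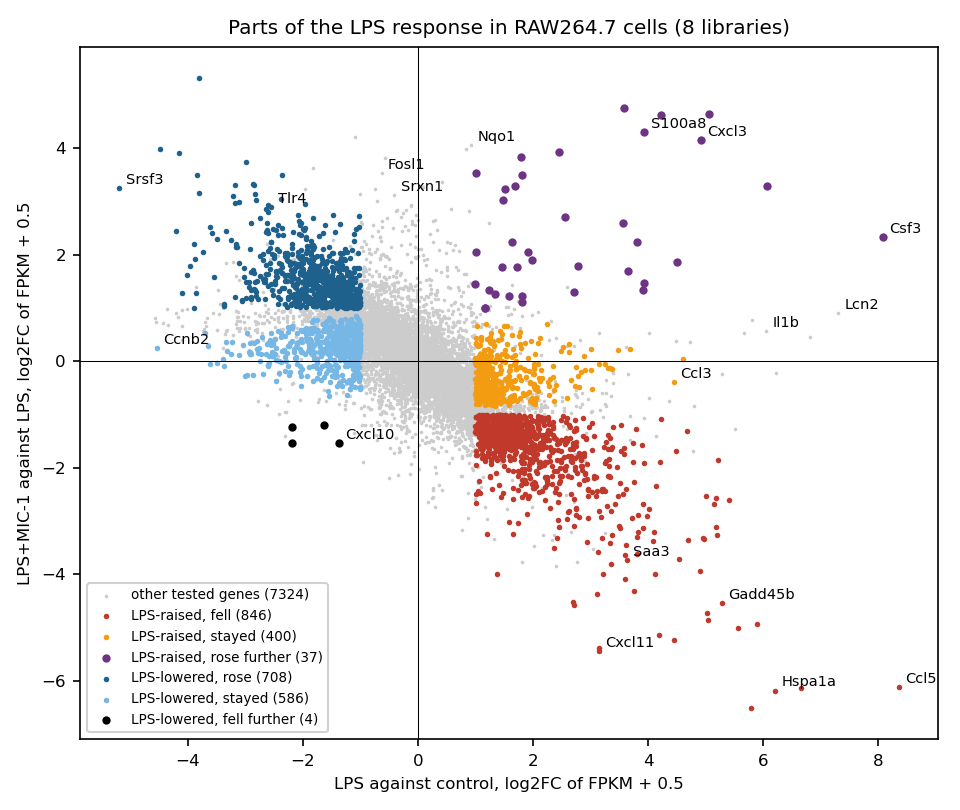
Each point is a tested gene; the horizontal axis is the log2FC of LPS against control and the vertical axis that of LPS+MIC-1 against LPS, both over 8 libraries, coloured by class. Ccl5 and Hspa1a lie at the lower right among the 846 LPS-raised genes that fell, Cxcl3 and Csf3 at the upper right among the 37 that rose further, and Ccnb2 near 0 on the vertical axis at the far left among those lowered that stayed.

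**Figure D2:**
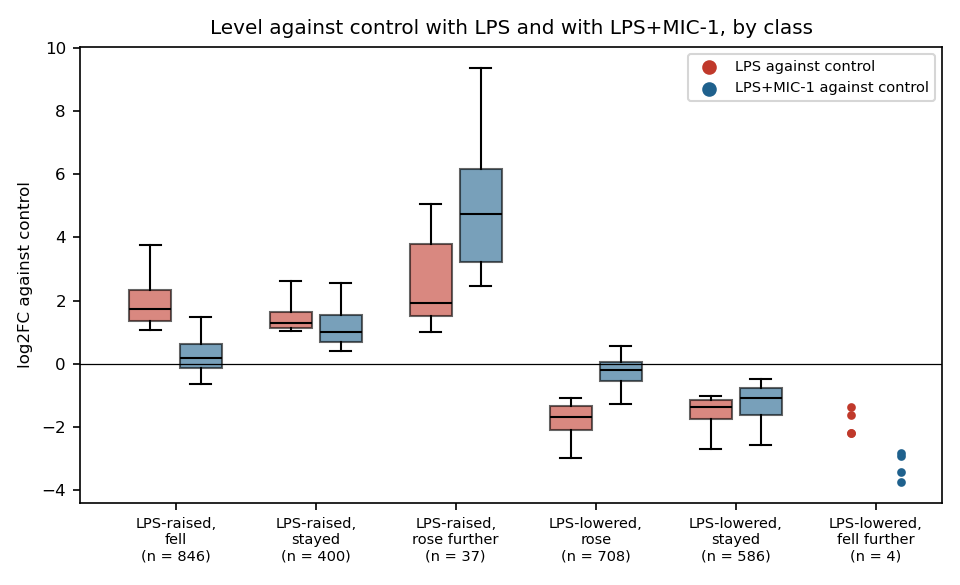
Boxes show the median and quartiles, with whiskers at the 5th and 95th percentiles, of log2FC against control for the genes of each class, with LPS in red and LPS+MIC-1 in blue; the 4 genes of the smallest class are drawn as points. The median of the LPS-raised genes that fell was 1.75 with LPS and 0.18 with LPS+MIC-1, while that of the genes that rose further was 1.92 and 4.75.

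The chemokine genes, which call leukocytes to a site of infection, moved in opposite directions. Of 15 tested, 7 fell, 4 rose and 4 were not called, against 12% falling and 11.3% rising among all genes. The median log2FC was -0.85 (5 rose and 4 fell on the equal-sum scale, median -0.09). Ccl5, which draws T cells and monocytes, was at 46.7, 101 and 90.4 FPKM in control, 24673 and 25371 in LPS 1 and 3, 115 in LPS 2 and 464, 219 and 461 with LPS+MIC-1. The LPS+MIC-1 libraries thus lay far below LPS 1 and 3, yet above every control library (log2FC against control 2.25, adjusted p = 0.00120). Cxcl16, a membrane-bound chemokine for Cxcr6-bearing T cells, went from 168 and 164 FPKM in LPS 1 and 3 to 10.3, 12.2 and 18.9 (log2FC -3.59, SE 0.24, adjusted p = 1.19e-05), with libraries 1 and 2 under and library 3 within the control values of 18.5, 21.9 and 15.8. Ccl22, a ligand of Ccr4, dropped from 9.42 and 9.58 to 0.452, 0.302 and 0.683 FPKM (log2FC -3.37, SE 0.20, adjusted p = 7.86e-06). Ccl22 passed the filter only through LPS 1 and 3, so among the 7 it could only fall. Cxcl11 and Cxcl10, ligands of the same receptor, Cxcr3, were called below control. Cxcl11 had 4.09, 4.78 and 3.54 FPKM in control, 40.3 and 40.2 in LPS 1 and 3, 4.91 in LPS 2 and 0.591, 0.244 and 0.539 with LPS+MIC-1. Cxcl10 was lowered by LPS from 64.5, 70.1 and 64.3 to 25.1 and 25.7 FPKM and fell again to 7.36, 11 and 7.33 (log2FC -1.54, SE 0.16, adjusted p = 1.03e-04).

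Cxcl3, Cxcl2, Ccl7 and Ccl4 were the members that rose. Cxcl3, a neutrophil chemokine, was below 1 FPKM in control and LPS 2, 20.6 and 20.9 in LPS 1 and 3 and 509, 201 and 514 with LPS+MIC-1 (log2FC 4.14, SE 0.38, adjusted p = 5.39e-05). Cxcl2, of the same kind, rose from 1492 and 1598 to 4957, 4929 and 5158 FPKM (log2FC 1.70, SE 0.32, adjusted p = 0.00228), and all 3 LPS+MIC-1 libraries lay above every LPS library. Cxcl1, a further neutrophil chemokine, was below the filter, at most 0.668 FPKM in any library. Ccl7, a monocyte chemokine, went from 171 and 174 to 771, 429 and 749.7 FPKM (log2FC 1.86, SE 0.45, adjusted p = 0.00718). Ccl4, a chemokine of macrophages, was near its control values of 353, 510.3 and 338 FPKM in every LPS library, 492 and 496 in LPS 1 and 3 and 529 in LPS 2. With LPS+MIC-1 it was 2938, 2515 and 2729 (log2FC 2.46, SE 0.17, adjusted p = 1.38e-05), and it was also called over 9 libraries (log2FC 2.43, SE 0.18, adjusted p = 4.86e-04). Ccl3, the neighbour of Ccl4, stayed, at 17876 and 17425 FPKM in LPS 1 and 3 and 14316, 12146 and 14197 with LPS+MIC-1 (95% interval of the log2FC -0.82 to 0.05). On mm9 these genes lie close together, Ccl5 at chr11:83339280-83344020, Ccl9 at chr11:83386421-83392138, Ccl3 at chr11:83461346-83462857 and Ccl4 at chr11:83476086-83478185. Ccl5 and Ccl9 fell (Ccl9 log2FC -1.14), Ccl3 stayed, Ccl4 rose, and Ccl6 between them was not called (log2FC 0.15). Likewise on chromosome 5, Cxcl3 (chr5:91215129-91217112) and Cxcl2 (chr5:91332897-91334935) rose while Cxcl10 (chr5:92775664-92777915) and Cxcl11 (chr5:92788570-92794511) fell.

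Of 20 cytokine and growth factor genes tested, 7 rose and 3 fell (median 0.55; 9 and 2 on the equal-sum scale, median 1.30). Csf3, the growth factor of neutrophils, had at most 2.08 FPKM in control and LPS 2, 426 and 431 in LPS 1 and 3 and 2191, 2084 and 2214 with LPS+MIC-1 (log2FC 2.33, SE 0.31, adjusted p = 3.55e-04). Csf2, the growth factor of granulocytes and macrophages, was at 0.662 and 0.545 FPKM in LPS 1 and 3, not called above control, and at 9.42, 4.66 and 8.82 with LPS+MIC-1 (log2FC 2.83, SE 0.31, adjusted p = 1.34e-04). Il1f9, an interleukin-36 cytokine, went from 5.10 and 4.92 to 64.9, 128 and 70.1 FPKM (log2FC 3.93, SE 0.31, adjusted p = 2.44e-05). These 3 genes were higher in each LPS+MIC-1 library than in any LPS library, LPS 2 included. Tnf, a first cytokine of the response, was not called with LPS, at 165, 330.1 and 163 FPKM in control and 238 and 238 in LPS 1 and 3, and rose to 719, 658 and 709 with LPS+MIC-1 (log2FC 1.54, SE 0.28, adjusted p = 0.00173). Il6 showed 5.45 and 6.37 FPKM in LPS 1 and 3 and 59, 15.5 and 59.6 with LPS+MIC-1 (log2FC 2.59, SE 0.53, adjusted p = 0.00326), with library 2 well under the other two. Edn1, a vasoconstrictor peptide, and Il23a, the p19 subunit of interleukin-23, also rose, with log2FC 2.60 and 1.63. Csf2, Edn1 and Il23a passed the filter only through their LPS+MIC-1 values, so among the 7 they could only rise.

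Il27, an interleukin-12 family cytokine, fell from 97.7 and 92.3 FPKM to 14.4, 5.01 and 13.1 (log2FC -3.20, SE 0.39, adjusted p = 2.16e-04), against 4.16, 5.78 and 5.26 in control. Hbegf, a ligand of the EGF receptor, and Tnfsf9, the 4-1BB ligand, were the other members that fell (log2FC -1.91 and -1.60). The interleukin-1 genes were undecided. Il1b was at 214 and 227 FPKM in LPS 1 and 3 and at 635, 81.7 and 664 with LPS+MIC-1, so that libraries 1 and 3 were above LPS and library 2 below it (log2FC 0.56, SE 0.89, adjusted p = 0.594). Il1a had the same split, 84 and 79.8 against 236, 25.5 and 234 FPKM (log2FC 0.46, SE 0.87, adjusted p = 0.659). Il1rn, which encodes the receptor antagonist, was at 1337 and 1322 against 1909, 1396 and 1907 FPKM (log2FC 0.37, SE 0.29, adjusted p = 0.292). All 3 genes were far above control with LPS+MIC-1. The 7 inflammasome genes tested, which process interleukin-1, held 0 calls in either direction by limma, with 1 member higher and 1 lower at an unadjusted p under 0.05 (median -0.20; 1 rose on the equal-sum scale, median 0.60), and Casp1 was at 86.5 and 89 against 81.4, 81.5 and 82.8 FPKM. Nlrp3 was near 0 in LPS+MIC-1 1 and 3 and at 3.88 FPKM in library 2.

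**Figure D3:**
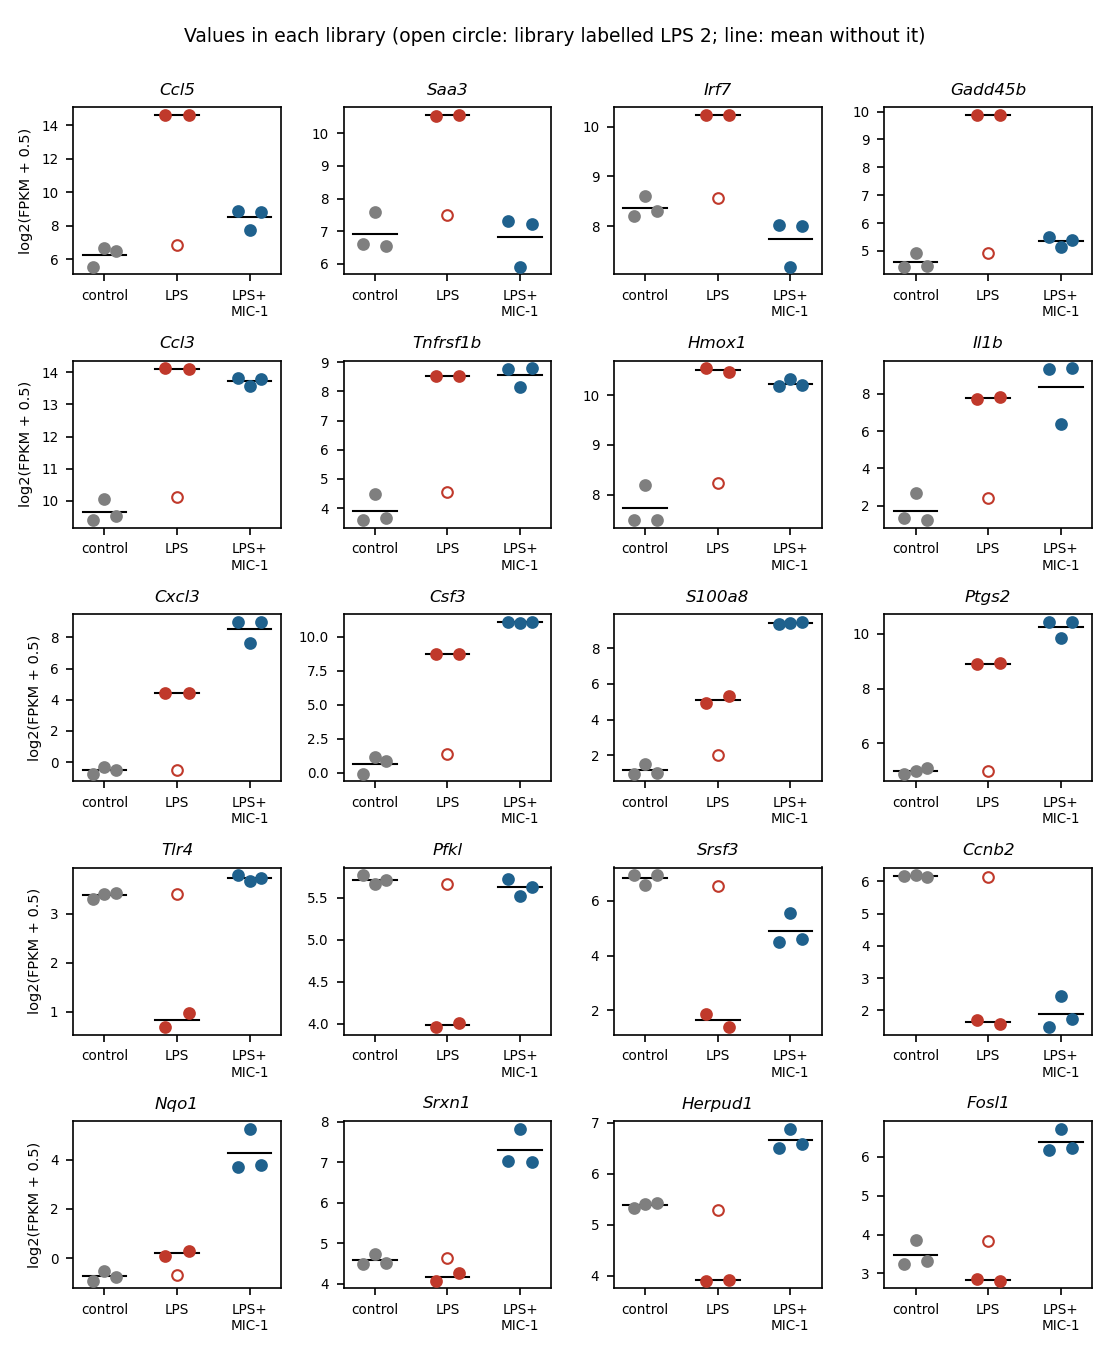
Each panel shows log2(FPKM + 0.5) of a gene in every library, with libraries 1 to 3 from left to right in each treatment. The open circle is LPS 2, numbered by column order, and the line is the mean without it. LPS 2 lies with the control libraries; the top row returns toward control with LPS+MIC-1, the second row is near LPS 1 and 3 except that Il1b is split (635, 81.7 and 664 FPKM), and the third row rises beyond them.

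Genes of neutrophil granules and stefins were among those that rose further. Of 8 tested, 5 rose and 1 fell (median 4.07; the same counts on the equal-sum scale, median 4.77). S100a8, a calcium-binding protein abundant in neutrophils, was at 1.46, 2.40 and 1.54 FPKM in control, 29.7 and 39.2 in LPS 1 and 3, 3.56 in LPS 2 and 651, 676 and 718 with LPS+MIC-1 (log2FC 4.30, SE 0.18, adjusted p = 3.00e-06). The fold over LPS 1 and 3 was 19.8. S100a9, with which S100a8 forms a dimer, was at most 0.482 FPKM in any library and was not tested, and the neutrophil markers given above summed to at most 2.01 FPKM. Stefins are inhibitors of cysteine cathepsins. Stfa3 went from 6.05 and 9.01 to 231, 185 and 223 FPKM (log2FC 4.75, SE 0.25, adjusted p = 5.21e-06). Gm5483 and Gm5416, which lie with Stfa3 in a stefin cluster on chromosome 16 of mm9 (chr16:36184298-36188197, chr16:36210489-36217874 and chr16:36450623-36455478), went from 24.6 and 32 to 645, 933 and 599 FPKM and from 7.38 and 10.5 to 172, 434 and 160.2 FPKM. These paralogs are alike in sequence, so how reads were shared among them is uncertain. Mmp8, a neutrophil collagenase, rose from 1.23 and 2.13 to 35.7, 21.4 and 35.2 FPKM (log2FC 3.84, SE 0.26, adjusted p = 1.29e-05). Mmp8 passed the filter only through its LPS+MIC-1 values, so among the 5 it could not have been counted as a fall. Of the 20 genes listed, the filter left 8. Saa3, an acute-phase protein, was the member that fell, from 1477 and 1525 to 159, 59.6 and 149 FPKM (log2FC -3.73, SE 0.46, adjusted p = 2.34e-04), against 97.7, 193 and 93.1 in control. Lcn2, an iron-chelator carrier, was not called, at 1661 and 1669.9 against 3223, 2742 and 3373 FPKM (adjusted p = 0.143).

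Enzymes of activated macrophages were among the other genes that rose with LPS+MIC-1. Of 12 inflammatory effector enzyme genes, all raised by LPS, 3 rose, 4 fell and 5 were not called (median -0.60; 4 and 0 on the equal-sum scale, median 0.20). Ptgs2, the inducible cyclooxygenase, went from 478 and 487 to 1399, 931 and 1373 FPKM (log2FC 1.33, SE 0.17, adjusted p = 2.79e-04), and Arg2, the mitochondrial arginase, from 11.7 and 10.4 to 36.8, 45.5 and 36.6 FPKM (log2FC 1.79, SE 0.12, adjusted p = 1.19e-05). Ptges, which converts the product of Ptgs2 to prostaglandin E2, fell from 48.8 and 46.3 to 14.6, 13.3 and 15.5 FPKM (log2FC -1.68, SE 0.12, adjusted p = 1.64e-05). Slc7a2, an arginine transporter, fell by 1.88 on the log2 scale. Nos2, the inducible nitric oxide synthase, was at 5.12, 17.9 and 6.93 FPKM in control, 239.9 and 271 in LPS 1 and 3 and 158, 98.2 and 185 with LPS+MIC-1 (log2FC -0.84, SE 0.48, adjusted p = 0.153); the LPS+MIC-1 libraries were lower than LPS 1 and 3 but the change did not pass the test. Serpinb2, an inhibitor of plasminogen activators, rose from 69.3 and 75.8 to 1204, 239 and 1274 FPKM (log2FC 3.30, SE 0.76, adjusted p = 0.00582), with library 2 again apart. Mmp12, macrophage elastase, was under 0.5 FPKM in control and all LPS libraries and at 4.94, 3.92 and 5.19 with LPS+MIC-1 (log2FC 2.92, SE 0.27, adjusted p = 5.39e-05). Mmp12 passed the filter only through its LPS+MIC-1 values, so in the matrix protease list it could only rise. In the matrix protease list as a whole 2 rose and 5 fell of 13 (median -0.86; 2 and 2 on the equal-sum scale, median -0.11). The heparan sulfate proteoglycan Sdc1 fell most of these, from 113 and 108 to 4.36, 4.15 and 4.62 FPKM, below its control values of 16.2, 18.9 and 15. Timp1, an inhibitor of matrix proteases, fell from 6.61 and 5.86 to 0.540, 0.475 and 1.05 FPKM (log2FC -2.53).

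The interferon-induced genes, which encode antiviral proteins and their regulators, were mostly not called, 2 of 37 rising and 8 falling (median -0.19). On the equal-sum scale 12 rose and 2 fell (median 0.58), where the median of all genes was 0.74. Most of the list was not raised by LPS to begin with, 7 members being called higher and 9 lower against control. Of the 7 raised, 6 fell. Irf7, the transcription factor that amplifies interferon production, was at 292, 388 and 317 FPKM in control, 1211 and 1198 in LPS 1 and 3, 376 in LPS 2 and 259, 145 and 257 with LPS+MIC-1 (log2FC -2.50, SE 0.25, adjusted p = 7.98e-05). Isg20, an antiviral exonuclease, went from 89.8 and 105 to 28.3, 12.3 and 24.4 FPKM (log2FC -2.22, SE 0.32, adjusted p = 5.18e-04). Rsad2, viperin, fell from 79 and 77 to 31.1, 21.1 and 30.8 FPKM (log2FC -1.50, SE 0.24, adjusted p = 8.18e-04) and was above its control values of 10.3, 17 and 11.1. Bst2, Zbp1 and Xaf1 also fell (log2FC -1.77, -1.73 and -1.59). By contrast Ifit1 and Isg15 were not called, at 24.9 and 24.2 against 79.6, 26.9 and 80 FPKM and 268 and 262 against 345, 224 and 362 FPKM. Oasl1, a translational inhibitor of Irf7, rose from 56.3 and 41.7 to 146, 144 and 146 FPKM (log2FC 1.58, SE 0.18, adjusted p = 1.58e-04).

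Some genes that act in antigen presentation by class I molecules were in the interferon and surface lists, and are put together here after their values were seen. Psmb9, an immunoproteasome subunit, was at 83.5 and 92 FPKM in LPS 1 and 3 and at 40, 20.4 and 39.8 with LPS+MIC-1. Tap1, the peptide transporter, was at 94.7 and 94 and then at 36.8, 20.6 and 36.8. Both were lower than every control and LPS library, and both were called over 8 libraries and over 9 (log2FC over 9 -1.63 and -1.45, adjusted p = 0.00819 and 0.00806). Psmb8, another immunoproteasome subunit, was at 173 and 189 against 101, 73.8 and 99 FPKM and was not called over 8 libraries, its log2FC falling just short of 1 in size, but was over 9 (log2FC -1.10, adjusted p = 0.00574). H2-K1, a class I heavy chain, fell from 733 and 646 to 128, 102 and 118 FPKM (log2FC -2.57, SE 0.15, adjusted p = 7.92e-06), under the 171, 222 and 162 of control. B2m, its light chain, fell from 10168 and 10655 to 2251, 1767 and 2413 FPKM (log2FC -2.29, SE 0.14, adjusted p = 8.09e-06). H2-D1, a paralog of H2-K1, fell as well (log2FC -2.31), and the split of reads between these similar genes is uncertain. Of the 16 surface activation genes, 2 rose and 6 fell (median -0.52; 2 and 4 on the equal-sum scale, median 0.28). The costimulatory receptor Cd40 fell from 92.4 and 95.2 to 27.6, 26.2 and 26.9 FPKM (log2FC -1.78, SE 0.11, adjusted p = 1.00e-05). Cd80 and Cd86, the ligands of Cd28, were not called, with 61.2 and 62 against 44.8, 29 and 42.9 FPKM for Cd80 and 23.2 and 20.9 against 23.3, 11.9 and 23.3 for Cd86. Fpr1, the formyl peptide receptor, rose from 0.801 and 0.810 to 9.30, 5.01 and 9.76 FPKM (log2FC 2.65, SE 0.33, adjusted p = 2.48e-04) and did so over 9 libraries too (log2FC 2.65).

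The promoters of these genes were searched for a short interferon response element, GAAA, any 2 bases and GAAA on either strand, from 250 bases before to 50 after the start. RefSeq promoters (GRCm38.p6) were at hand for 7045 of the 9905 tested genes, 8872 promoters in all. The match was in 41.7% of the promoters of the interferon list and in 3.31% of all. Its share was 3.57% among genes called higher and 3.48% among genes called lower. The Rsad2 site is shown as an example, since Rsad2 was raised by LPS and fell, on the minus strand at chr12:26456543-26456592 of GRCm38.p6, 120 bases before the start, with the match in capitals (on the opposite strand of the gene):
Rsad2: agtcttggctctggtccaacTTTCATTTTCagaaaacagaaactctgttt
A match is a letter pattern and not a site in use.

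Hsp70 genes were among those that fell most. Hspa1a and Hspa1b, the inducible Hsp70 pair, were under 4 FPKM in control and LPS 2. Hspa1a was at 62.4 and 61.6 FPKM in LPS 1 and 3 and at 0.302, 0.511 and 0.293 with LPS+MIC-1. Hspa1b was at 177 and 174 and then at 1.33, 1.85 and 1.21. They are near-identical neighbours on chromosome 17 of mm9 (chr17:35106144-35109069 and chr17:35093381-35096183) and their reads cannot be told apart with certainty. Hspb1, the small heat shock protein, was at 0 in every control library and LPS 2, at 5.37 and 5.96 in LPS 1 and 3 and at 0.133, 0.0668 and 0 with LPS+MIC-1. Hspa1a and Hspb1 passed the filter only through LPS 1 and 3, so in the counts below they could only fall. Of 17 heat shock genes tested, 4 fell and 1 rose, with 8 lower and 4 higher at an unadjusted p under 0.05 (median -0.22; 5 rose and 3 fell on the equal-sum scale, median 0.55), and beside Hspb1, Hspa1a and Hspa1b the constitutive Hspa8 fell, from 2545 and 2549.7 to 1146, 1415 and 1155 FPKM, under every control library. Dnajb1, a cochaperone of Hsp70, was at 15.8 and 16 against 13.3, 13.2 and 14.1 FPKM (log2FC -0.22, SE 0.06, adjusted p = 0.0152).

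Of 19 p53 target and growth arrest genes, 12 fell and 1 rose, against 12% and 11.3% of all genes (median -1.17). On the equal-sum scale 5 fell and 2 rose (median -0.41). Gadd45g and Gadd45b, stress sensors upstream of MAP kinases, went from 178 and 176 to 6.42, 8.07 and 6.48 FPKM (log2FC -4.57, SE 0.15, adjusted p = 1.45e-06) and from 946 and 948 to 45.1, 34.5 and 41.8 FPKM (log2FC -4.54, SE 0.17, adjusted p = 1.97e-06). Gadd45g ended under its control values of 24.4, 32.4 and 23.5, while Gadd45b remained over its 21.1, 29.9 and 21.5. Their relative Gadd45a was the member that rose, from 34.5 and 37.4 to 84.7, 69.9 and 81.4 FPKM (log2FC 1.12, SE 0.21, adjusted p = 0.00209). Cdkn1a, the p21 inhibitor of cyclin-dependent kinases, fell from 748 and 690.0 to 256, 204 and 253 FPKM (log2FC -1.60, SE 0.14, adjusted p = 3.76e-05), and Mdm2, the ubiquitin ligase of p53, from 188 and 199 to 86.8, 84.4 and 84.9 FPKM (log2FC -1.17, SE 0.11, adjusted p = 5.98e-05). Phlda3, an Akt inhibitor, fell below control, from 74.3 and 70.7 to 6.72, 4.96 and 6.30 FPKM, and Bbc3, which encodes Puma, by 2.10 on the log2 scale. Over 9 libraries 4 of the 19 were called lower and 0 higher by limma (12 and 2 at an unadjusted p under 0.05), and 9 had LPS+MIC-1 values under those of all LPS libraries, against 18.2% of all tested genes.

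Many lysosomal genes fell. Of 16 tested, 11 were raised by LPS. With LPS+MIC-1 11 fell and 0 rose by limma, against 12% and 11.3% of all genes. At an unadjusted p under 0.05, 1 was higher. The median was -1.39 (3 fell and 2 rose on the equal-sum scale, median -0.59). Of the cathepsins, Ctsb was at 3164 and 3159 FPKM in LPS 1 and 3 against 722, 861 and 744 with LPS+MIC-1. Ctsd was at 7328 and 7317 against 3288, 3727 and 3259 and Ctsl at 3085 and 3114 against 1149, 982 and 1117. Ctsb was thereby under the control values, while Ctsd and Ctsl were over them, and the difference for Ctsd was 0.13 with quantile normalization in place of -1.10. Atp6v0d2, a subunit of the lysosomal proton pump, fell from 68.1 and 72.8 to 9.04, 10.4 and 9.33 FPKM (log2FC -2.82, SE 0.20, adjusted p = 1.62e-05). Of the 11 macrophage identity genes, 4 fell and 0 rose by limma, 2 being higher at an unadjusted p under 0.05 (median -0.79; 2 fell and 2 rose on the equal-sum scale, median 0.01). Ctss and Lgmn, proteases that process antigen, went from 1986 and 1976 to 365, 285 and 372 FPKM (log2FC -2.55, SE 0.17, adjusted p = 1.34e-05) and from 736 and 737 to 137, 123 and 137 FPKM (log2FC -2.47, SE 0.09, adjusted p = 2.04e-06). Both were under every control library and LPS 2 and were called over 9 libraries. Csf1r, the receptor for the macrophage growth factor, was lowered by LPS from 423, 406 and 419 to 109 and 108 FPKM, and was 160.3, 245 and 160.5 with LPS+MIC-1 (not called, log2FC 0.77). Ferritin, the iron store, fell too, though its gene family has many similar copies and its reads are uncertain. Ftl1 went from 70207 and 68495 to 19662, 17913 and 19224 FPKM (log2FC -1.87, SE 0.12, adjusted p = 1.10e-05) and Fth1 from 89994 and 79755 to 27979, 23895 and 27698 FPKM (log2FC -1.68, SE 0.18, adjusted p = 1.16e-04). Control held 6584, 8459.8 and 6562 FPKM of Ftl1, and 6446, 9556 and 6454 of Fth1. Hamp, the iron hormone hepcidin, dropped from 51.2 and 40.7 to 0.587, 2.15 and 0.691 FPKM (log2FC -4.94, SE 0.36, adjusted p = 1.84e-05), and Slc40a1, the iron exporter that hepcidin binds, rose from 0.873 and 0.714 to 5.24, 8.81 and 5.92 FPKM (log2FC 2.44, SE 0.21, adjusted p = 3.89e-05), over the 1.68, 1.72 and 1.36 of control.

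Immediate-early genes and MAP kinase phosphatases start and stop the kinase signal. Of 19 tested, 3 rose and 5 fell, against 11.3% and 12% of all genes (median -0.46). On the equal-sum scale 6 rose and 1 fell (median 0.34). Dusp4 fell from 347 and 339 to 56.4, 66.9 and 58.7 FPKM (log2FC -2.49, SE 0.10, adjusted p = 2.72e-06) and Dusp1, the main phosphatase of p38, from 302 and 287 to 129, 100.2 and 122 FPKM (log2FC -1.33). Dusp6, which acts on ERK, went from 12.2 and 12.8 to 90, 55.6 and 92.3 FPKM, above the 28.5, 42.3 and 28.5 of control (log2FC 2.58). Fosl1, an AP-1 subunit, was at 8.90, 14 and 9.44 FPKM in control, 6.77 and 6.54 in LPS 1 and 3, 13.8 in LPS 2 and 71.2, 105 and 73.8 with LPS+MIC-1 (log2FC 3.53, SE 0.22, adjusted p = 9.84e-06). Fos was at 139 and 145 against 96.8, 59.6 and 96.5 FPKM and Fosb fell from 2.35 and 1.83 to 1.03, 0.358 and 0.869. Of 13 JAK-STAT and SOCS genes 1 rose and 2 fell, near the shares of all genes (median -0.11). On the equal-sum scale 5 rose and 1 fell (median 0.65). Pim1, a kinase downstream of STAT factors, fell from 283 and 303 to 56.8, 40.4 and 56.2 FPKM (log2FC -2.52, SE 0.16, adjusted p = 1.03e-05), and Socs3, the inhibitor of interleukin-6 signalling, rose from 42.6 and 38.3 to 142, 64.8 and 139 FPKM (log2FC 1.41, SE 0.33, adjusted p = 0.00609). The cytokine mRNA decay list had 1 rise and 2 falls among 9, against the same shares of all genes (median -0.02). On the equal-sum scale 3 rose and 0 fell by limma (median 0.77). Zfp36l2, an RNA-binding protein that shortens cytokine messages, fell from 76.3 and 79.6 to 26.5, 29.1 and 27 FPKM, under the 66.6, 64.7 and 69.1 of control, and over 9 libraries too (log2FC -1.38, SE 0.12, adjusted p = 6.58e-04).

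**Figure D4:**
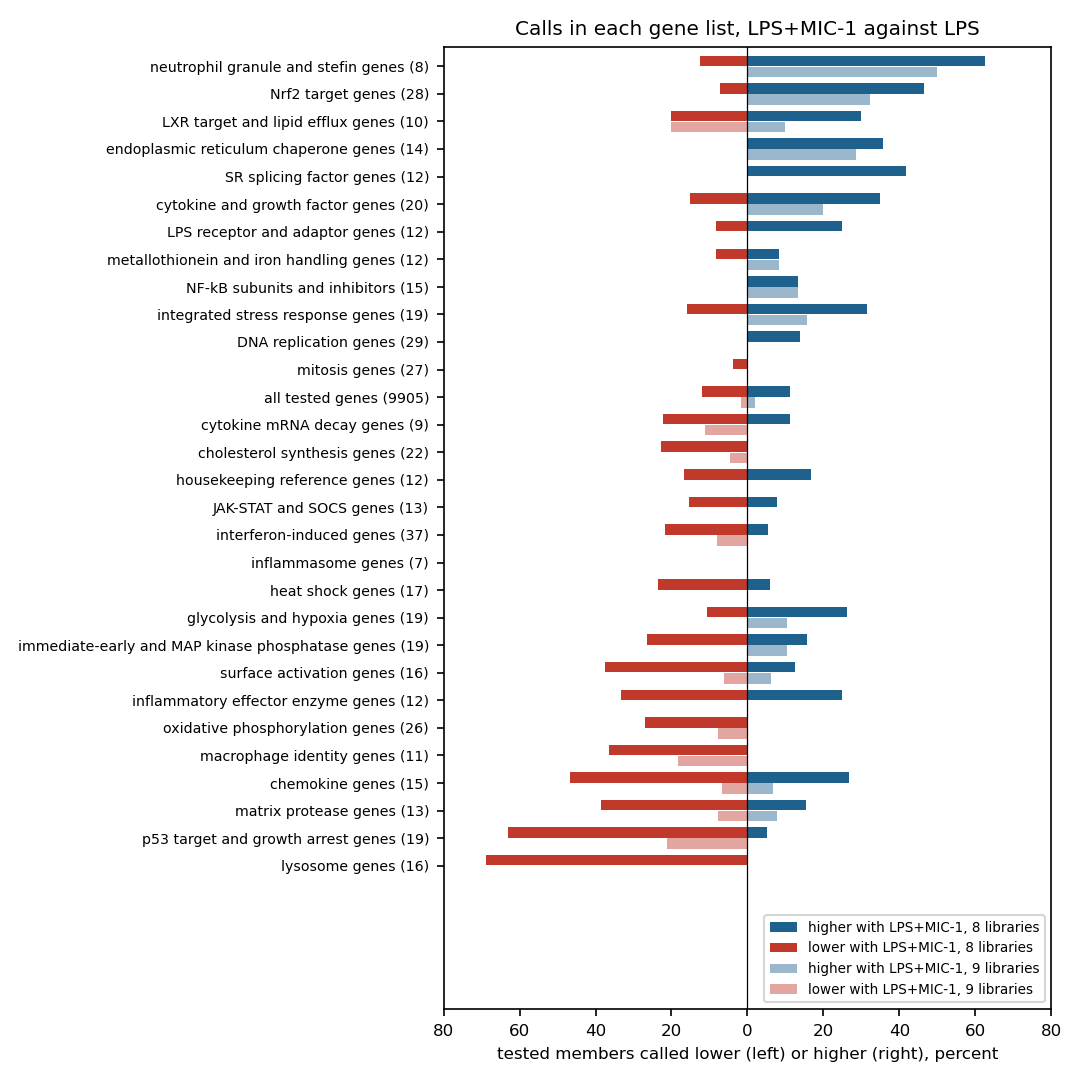
Bars give the percent of the tested members of each gene list called lower (red, left) or higher (blue, right) with LPS+MIC-1 against LPS, dark for 8 libraries and pale for 9, lists ordered by their median log2FC over 8 libraries and the number tested in brackets. Lysosome genes have 11 of 16 called lower over 8 libraries and 0 over 9, whereas the granule and stefin, Nrf2 target and endoplasmic reticulum chaperone lists keep calls higher over both.

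At the receptor end of the pathway, LPS lowered 4 of 12 genes and raised 2. With LPS+MIC-1 3 rose and 1 fell (median 0.46; 6 and 0 on the equal-sum scale, median 1.26). Tlr4 was at 9.34, 10.1 and 10.3 FPKM in control, 1.11 and 1.48 in LPS 1 and 3, 10.1 in LPS 2 and 13.4, 12.2 and 12.8 with LPS+MIC-1 (log2FC 2.90, SE 0.11, adjusted p = 1.98e-06). The LPS+MIC-1 libraries were thus above LPS and control alike. Tlr1 and Tlr2, receptors for bacterial lipopeptides, rose with it (log2FC 1.42 and 1.41). Cd14, which hands LPS to Tlr4, was 1891 and 2006 FPKM in LPS 1 and 3 and 3136, 2273 and 3207 with LPS+MIC-1 (log2FC 0.54, SE 0.14, adjusted p = 0.0113). Ly96, the partner of Tlr4, stayed, at 50.2 and 55.4 against 36.1, 40.3 and 37.7 FPKM. The adaptor Ticam1 fell from 53.4 and 50.1 to 23, 21.1 and 23.1 FPKM (log2FC -1.19, SE 0.11, adjusted p = 4.95e-05), while Myd88 was at 40.3 and 39.6 against 51, 53.3 and 51.9 FPKM and stayed.

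NF-kB subunits and inhibitors were mostly not called, 2 of 15 rising and 0 falling by limma, against 11.3% and 12% of all genes. At an unadjusted p under 0.05, 8 were higher and 1 lower. The median was 0.42 (8 rose and 0 fell by limma on the equal-sum scale, median 1.15). Nfkbia, the inhibitor that NF-kB itself induces, was at 112, 192 and 115 FPKM in control, 346 and 342 in LPS 1 and 3 and 334, 199 and 334 with LPS+MIC-1. Tnfaip3, the A20 inhibitor, was 22.2 and 18.2 against 11.3, 11.5 and 12.3 FPKM (log2FC -0.75, SE 0.20, adjusted p = 0.0103), with all LPS+MIC-1 libraries lower but without a call. The members that rose were Irak3, an inhibitor of the receptor complex, from 9.11 and 12.1 to 34.4, 22.2 and 33.7 FPKM (log2FC 1.45, SE 0.22, adjusted p = 6.40e-04), and Nfkbiz, a nuclear cofactor, from 22.4 and 21.6 to 63.7, 41.3 and 63.3 FPKM (log2FC 1.30, SE 0.25, adjusted p = 0.00237). Both were called over 9 libraries as well. Among the genes raised most by LPS that stayed, Tnfrsf1b, the second Tnf receptor, was at 368 and 367 against 432, 286 and 446 FPKM (95% interval -0.63 to 0.73). Slc15a3, a lysosomal peptide transporter, was at 535 and 524 against 658, 549.6 and 665 FPKM, and Odc1, the first enzyme of polyamine synthesis, at 3108 and 3217 against 2764, 3088 and 2758 FPKM. Hmox1, heme oxygenase, was also of this kind, at 179, 292 and 179 FPKM in control, 1492 and 1412 in LPS 1 and 3 and 1167, 1274 and 1173 with LPS+MIC-1.

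Mitosis genes were still low. Of 27 tested, 26 were lowered by LPS, and of these 15 stayed, 10 were undecided and 1 fell further with LPS+MIC-1. By limma 0 rose, with 5 higher and 3 lower at an unadjusted p under 0.05 (median 0.15; 8 and 0 on the equal-sum scale, median 0.73). Ccnb2, a mitotic cyclin, was at 71.6, 72.7 and 69.6 FPKM in control, 2.77 and 2.45 in LPS 1 and 3, 70 in LPS 2 and 2.28, 4.90 and 2.80 with LPS+MIC-1. Plk1, a mitotic kinase, was 60.5, 53.3 and 57.9 FPKM in control, 1.72 and 2.14 in LPS 1 and 3 and 2.77, 6.13 and 2.98 with LPS+MIC-1. Cdc20, an activator of the anaphase-promoting complex, was 73, 65.5 and 68.4, then 2.43 and 2.53, then 3.18, 8.83 and 3.10. All 26 were called below control with LPS+MIC-1. Cenpa, the centromeric histone, was the member that fell further, from 9.11 and 9.35 to 2.78, 4.29 and 1.88 FPKM (log2FC -1.54, SE 0.25, adjusted p = 0.00106), and Mnd1 and Nrm, outside the list, did so too (log2FC -1.24 and -1.19).

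The promoters of the mitosis genes share a cell cycle element. Its core, TTTGAA on either strand, was in 75% of the mitosis promoters and in 12.0% of all promoters of tested genes. It was in 19.6% of the promoters of LPS-lowered genes that stayed and in 10.8% of those that rose. The mitosis list has 15 genes in the former class and 0 in the latter, so its own genes enter this contrast. Sites of Cdk1, the mitotic kinase, and Mki67, the proliferation antigen, are shown as examples, both on the minus strand of GRCm38.p6 (chr10:69352958-69353003 and chr7:135716470-135716515), 71 and 116 bases before the start, with the match in capitals:
Cdk1: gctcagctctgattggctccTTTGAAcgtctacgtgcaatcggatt
Mki67: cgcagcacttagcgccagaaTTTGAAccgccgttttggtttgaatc
Cdk1 was 51.4, 51.1 and 51.8 FPKM in control, 7.24 and 7.62 in LPS 1 and 3 and 8.19, 14.5 and 9.25 with LPS+MIC-1. Mki67 was 36.4, 29.3 and 38.6 FPKM in control, then 4.0 and 3.92, then 2.40, 5.55 and 2.41.

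DNA replication genes were also still low. Of 29 tested, 27 were lowered by LPS and 4 (against 11.3% of all genes) rose with LPS+MIC-1 while 0 fell by limma, 11 being higher and 0 lower at an unadjusted p under 0.05 (median 0.36; 14 and 0 on the equal-sum scale, median 1.00), and 27 were still called below control. Over 9 libraries the median was -0.39, with 0 calls by limma and 0 higher and 2 lower at an unadjusted p under 0.05. Cdc6, which loads the replicative helicase, went from 0.226 and 0.197 to 1.61, 3.39 and 1.84 FPKM (log2FC 1.91, SE 0.26, adjusted p = 3.62e-04), and Mcm3, a subunit of that helicase, from 6.25 and 7.14 to 16.7, 33.3 and 16.3 FPKM (log2FC 1.57, SE 0.28, adjusted p = 0.00172). In control Cdc6 was at 10.8, 8.48 and 10.7 FPKM. Mcm2 rose as well (log2FC 1.22, SE 0.26, adjusted p = 0.00425), and Mcm4 was not called (log2FC 0.74, SE 0.27, adjusted p = 0.0402). Mcm10, a replication initiation factor, rose from 0.667 and 1.15 to 2.30, 4.98 and 1.95 FPKM (log2FC 1.27, SE 0.32, adjusted p = 0.00926) and had a log2FC of -0.04 over 9 libraries. Splicing factors of the SR family were lowered in 8 of 12 cases and rose in 5 (median 0.59; 7 and 0 on the equal-sum scale, median 1.36). Srsf3 was lowered by LPS from 122, 95.9 and 122 to 3.18 and 2.12 FPKM, and was 22.2, 46.3 and 24 with LPS+MIC-1 (log2FC 3.25, SE 0.31, adjusted p = 6.28e-05). Srsf5 rose from 39.7 and 41.3 to 104, 106 and 105 FPKM, and Srsf6 from 16.2 and 19.8 to 51.3, 64.8 and 50.3. Srsf1 stayed, at 27.9 and 26.3 against 24, 30.1 and 23.3 FPKM, as did Srsf2 (log2FC -0.28). Sfpq, a splicing factor outside the list, rose from 3.73 and 4.70 to 13.4, 19.8 and 14.4 FPKM and remained under its 75.5, 65.6 and 75.7 in control.

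Of 19 glycolysis and hypoxia genes 5 rose and 2 fell, against 11.3% and 12% of all genes (median -0.31). On the equal-sum scale 8 rose and 1 fell (median 0.49). Hk2, the first enzyme of the pathway, went from 7.35 and 8.03 to 25.5, 24.1 and 25.5 FPKM (log2FC 1.64, SE 0.07, adjusted p = 3.00e-06), above the 18.2, 17.3 and 18 of control. Pfkfb3, which makes the activator of phosphofructokinase, went from 53.1 and 54.3 to 15.4, 7.12 and 14.5 FPKM (log2FC -2.15, SE 0.29, adjusted p = 3.76e-04). Slc2a1, the glucose transporter, stayed, at 371 and 381 against 302, 254 and 308 FPKM against 76.3, 83.1 and 75.9 in control, and Ldha was 1231 and 1264 against 955, 851 and 967. Slc16a3, the lactate exporter, rose from 53.6 and 49 to 180.1, 140.1 and 175 FPKM (log2FC 1.67, SE 0.11, adjusted p = 1.16e-05). Genes of oxidative phosphorylation, the mitochondrial respiratory chain, were lower by small amounts. Of 26 tested, 7 fell and 0 rose by limma, 25 being lower and 1 higher at an unadjusted p under 0.05 (median -0.79). In 24 of 26 all 3 LPS+MIC-1 libraries were below all 3 LPS libraries, LPS 2 included, against 18.2% of all tested genes. On the equal-sum scale the median of the group was 0.01, under the 0.74 of all genes, and 1 gene rose, while quantile normalization gave 0 calls in either direction by limma. Ndufb5, of complex I, was 116, 112 and 105 FPKM in control, 186 and 197 in LPS 1 and 3, 114 in LPS 2 and 67.1, 74.2 and 76.1 with LPS+MIC-1 (log2FC -1.40, SE 0.08, adjusted p = 6.30e-06), and it was called over 9 libraries too (log2FC -1.15). Atp5c1, of ATP synthase, was called lower over 9 libraries too (log2FC -1.02). Transcript length moved with the sign of the difference. With genes split by length into 3 equal groups, the median log2FC was -0.23 in the shortest and 0.12 in each of the others, and the part of length in the result was not tested.

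Cholesterol synthesis genes were for the most part not called, 5 of 22 falling and 0 rising by limma, with 3 higher at an unadjusted p under 0.05 (median -0.06; 8 rose and 1 fell on the equal-sum scale, median 0.65). Insig1, which holds back the sterol sensor, fell from 76.8 and 80.3 to 14.2, 24.4 and 14 FPKM (log2FC -2.18, SE 0.33, adjusted p = 7.00e-04). Of 10 LXR target and lipid efflux genes 3 rose and 2 fell (median 0.73; 6 and 1 on the equal-sum scale, median 1.49). The cholesterol exporter Abca1 rose from 2.01 and 2.10 to 12.2, 5.87 and 12.7 FPKM (log2FC 2.00, SE 0.31, adjusted p = 7.21e-04), while its partner Abcg1 fell from 33.7 and 33 to 17.9, 11 and 18.1 FPKM (log2FC -1.10, SE 0.21, adjusted p = 0.00229), and both were called over 9 libraries. Pltp, a phospholipid transfer protein, fell from 67.9 and 68.9 to 4.15, 2.43 and 5.46 FPKM (log2FC -3.99, SE 0.31, adjusted p = 2.18e-05), under the 22, 35.4 and 22.9 of control. Of the 12 metallothionein and iron handling genes, Slc40a1 and Hamp, given above, were the ones called (median 0.44; 7 and 1 on the equal-sum scale, median 1.2). Mt1, which binds zinc, was at 2534 and 2709.8 FPKM in LPS 1 and 3 and at 1537, 1078 and 1637 with LPS+MIC-1, and Mt2 at 2023 and 2208 against 4080.4, 2111 and 3995.

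Many Nrf2 target genes rose, and before that 10 had been raised and 4 lowered by LPS. Of 28 tested, 13 rose and 2 fell, against 11.3% and 12% of all genes (median 0.92; 20 and 1 on the equal-sum scale, median 1.72), and 16 were called above control. Nqo1, a quinone reductase, was 0.0300, 0.195 and 0.0923 FPKM in control, 0.570 and 0.731 in LPS 1 and 3, 0.131 in LPS 2 and 12.6, 37.6 and 13.3 with LPS+MIC-1 (log2FC 4.05, SE 0.43, adjusted p = 1.13e-04). Gclm, the regulatory subunit of the enzyme that starts glutathione synthesis, was 24.8, 23.7 and 25.8, 33.4 and 36.3, 23.9 and 117, 225 and 113 FPKM in the same order (log2FC 2.03, SE 0.27, adjusted p = 3.35e-04). In both genes LPS+MIC-1 2 was the highest. Nqo1 passed the filter only through its LPS+MIC-1 values, so among the 13 it could only rise. Slc7a11, the cystine importer, rose from 13.7 and 13.8 to 80.8, 125 and 79.7 FPKM (log2FC 2.71, SE 0.24, adjusted p = 3.91e-05). Srxn1, Txnrd1 and Prdx1, of the thioredoxin system, and G6pdx, which supplies NADPH, rose as well, with log2FC 3.12, 1.36, 1.76 and 1.49. Prdx1 was already high in LPS and went from 2009.5 and 2153 to 6438, 8925 and 6123 FPKM. The 2 members that fell were the ferritins Ftl1 and Fth1. The transcripts of the regulators did not follow the targets, Nfe2l2, which encodes Nrf2, being 47.2 and 45.4 against 42.1, 48.3 and 42.3 FPKM (log2FC -0.07, SE 0.10, adjusted p = 0.576) and Keap1 9.44 and 10.7 against 18.1, 17.1 and 17.4 FPKM (log2FC 0.78, SE 0.07, adjusted p = 5.72e-05), against 37.1, 37 and 35.7 in control. Tarm1, an immune receptor outside the lists, was at 1.32 and 1.94 FPKM in LPS 1 and 3 and 25, 50.4 and 28.2 with LPS+MIC-1 (log2FC 3.99, SE 0.41, adjusted p = 8.64e-05), and there too library 2 was the highest.

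The antioxidant response element to which Nrf2 binds was searched as TGACNNNGC on either strand. It was in 27.6% of the promoters of the list and in 14.6% of all promoters, but in 13.1% of those of genes called higher and 13.9% of those called lower. For genes called higher over 9 libraries it was in 14.4%. Matches of 4 Nrf2 targets that rose are given on the strand of the gene (GRCm38.p6; Gclm chr3:122245403-122245451, plus strand, Txnrd1 chr10:82859094-82859142, plus, Prdx1 chr4:116685446-116685494, plus, and G6pdx chrX:74428909-74428957, minus). They lie 134, 92, 133 and 57 bases before the start, all on the opposite strand, and the capitals mark the match:
Gclm: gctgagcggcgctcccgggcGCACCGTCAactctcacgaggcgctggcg
Txnrd1: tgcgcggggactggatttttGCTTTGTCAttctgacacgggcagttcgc
Prdx1: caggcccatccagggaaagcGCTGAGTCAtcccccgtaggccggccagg
G6pdx: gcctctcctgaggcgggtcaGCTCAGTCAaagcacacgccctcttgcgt
No match in this window says nothing about elements farther away.

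Genes of the endoplasmic reticulum and of the integrated stress response, in which cells answer misfolded protein or lack of amino acids, also rose in part. Of 14 chaperone genes 5 rose and 0 fell by limma, 10 being higher and 2 lower at an unadjusted p under 0.05 (median 0.62; 11 and 0 on the equal-sum scale, median 1.42). In 11 of 14 all LPS+MIC-1 libraries were above all 3 LPS libraries, against 17.9% of all tested genes. Hspa5, the BiP chaperone, was 845, 852 and 852 FPKM in control, 918 and 901 in LPS 1 and 3, 855 in LPS 2 and 1805, 1991 and 1809.8 with LPS+MIC-1 (log2FC 1.04, SE 0.06, adjusted p = 9.17e-06). Herpud1, of the degradation machinery, rose from 14.4 and 14.6 to 89.6, 118 and 95.2 FPKM (log2FC 2.74, SE 0.11, adjusted p = 2.64e-06), above the 39.4, 42 and 42.2 of control. Xbp1, a transcription factor of the unfolded protein response, stayed, at 30.2 and 26.4 against 35.1, 14.8 and 30.4 FPKM; spliced and unspliced forms are not distinguished. Of 19 integrated stress response genes 6 rose and 3 fell (median 0.40; 12 and 1 on the equal-sum scale, median 1.2). Chac1, a glutathione-degrading enzyme, went from 4.87 and 4.53 to 18.5, 23.1 and 18.1 FPKM (log2FC 1.96, SE 0.24, adjusted p = 2.15e-04) and Trib3, a pseudokinase, from 12.9 and 12.2 to 42.7, 52.6 and 41 FPKM (log2FC 1.81). Wars, a tRNA synthetase, rose from 24 and 23.7 to 84.9, 105 and 85 FPKM (log2FC 1.91, SE 0.10, adjusted p = 5.10e-06). Atf4, the central factor, was 219 and 211 against 176, 220.3 and 190.1 FPKM, and Ddit3, which encodes Chop, 652 and 586 against 426, 375 and 424, without a call. Nupr1, a stress-induced nuclear protein, fell from 792 and 669 to 196, 121 and 186 FPKM (log2FC -2.15, SE 0.22, adjusted p = 9.19e-05). The amino acid response element TGATGNAA, searched on either strand, was in 31.6% of the promoters of the list, 2.18% of all, 3.27% of those called higher and 2.61% of those called lower over 8 libraries. Among genes called higher over 9 libraries the share was 14 of 187 promoters (7.49%). The match of Chac1 lies 193 bases before its start at chr2:119351029-119351076 of GRCm38.p6, plus strand:
Chac1: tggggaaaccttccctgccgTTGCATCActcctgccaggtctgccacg

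Several genes that fell or rose most were in none of the lists. Psrc1, a microtubule-binding protein, went from 196 and 189 to 4.65, 4.34 and 3.54 FPKM (log2FC -5.38, SE 0.12, adjusted p = 4.54e-07) and ended below its control values of 20.1, 23.9 and 20.1. Clu, the extracellular chaperone clusterin, went from 49 and 47.1 to 0.895, 0.718 and 1.07 FPKM (log2FC -5.13, SE 0.27, adjusted p = 5.22e-06), and Rhov, a small GTPase, from 184 and 181 to 6.07, 4.35 and 5.33 FPKM (log2FC -5.00, SE 0.17, adjusted p = 1.45e-06). Ier5l fell from 69.8 and 70.1 to 1.24, 1.99 and 1.05 FPKM, and D1Ertd622e rose from 0 and 2.84 to 26.9, 17.9 and 16.1. Mir1938 and Mir763 are entries of 100 and 120 bases, 1708 and 1905 against 19, 19.1 and 44 FPKM and 0 and 0 against 17.5, 18.6 and 22 FPKM. Per-length values of such short entries rest on few reads and are not levels of the mature miRNA. Among housekeeping genes, of which 2 of 12 rose and 2 fell (median -0.06; 4 and 1 on the equal-sum scale, median 0.74), Actb was lowered by LPS from 3644, 3646 and 3701 to 1048 and 1031 FPKM and was 3082, 3974 and 3140.4 with LPS+MIC-1 (log2FC 1.70, SE 0.11, adjusted p = 1.10e-05). Hprt was 135 and 139 against 125, 139.5 and 123.

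Further genes that the naming rule picks, given by their values in LPS 1 and 3 and then in LPS+MIC-1, were mostly not called. Ccl2, a monocyte chemokine, was 3590.0 and 3398 against 5161, 3447 and 5158 FPKM, and Irg1, which makes itaconate, 734 and 763 against 2157, 1623 and 2184 (log2FC 1.40, SE 0.47, adjusted p = 0.0294). The surface markers Itgam and Emr1 of macrophages were 211 and 216 against 334, 325 and 343 FPKM and 278 and 290.0 against 198, 115 and 193 FPKM, both above control and undecided. Mmp9, a gelatinase, was 215 and 210.1 against 159.6, 78.4 and 160.0 FPKM, Casp4 64.4 and 68.8 against 51.7, 38.6 and 49, and Kctd12 stayed at 78.4 and 81.6 against 108, 68.8 and 108. Mmp13, a collagenase, was under the filter, at most 2.26 FPKM. Atf3, a stress-induced repressor, fell from 443 and 427 to 174, 149 and 171 FPKM (log2FC -1.40, SE 0.12, adjusted p = 3.86e-05), and Chordc1, a cochaperone of Hsp90, rose from 22.2 and 22.9 to 43.4, 56.9 and 41.2 (log2FC 1.03, SE 0.14, adjusted p = 4.04e-04). The cytokine signalling inhibitors Socs1 and Cish had log2FC of -0.73 and 0.88 without a call, as had Zfp36 and Zfp36l1, which bind AU-rich messages, with -0.69 and -0.50. Hnrnpd, another AU-rich binder, rose from 8.81 and 8.14 to 18.1, 23.1 and 18.6 FPKM (log2FC 1.18, SE 0.13, adjusted p = 1.32e-04). Among cell cycle genes Ccnb1, Nusap1 and Iqgap3 stayed with log2FC of -0.03, 0.29 and 0.53, as did Fgd2, an exchange factor for Cdc42, with -0.06. Fbxo5, an inhibitor of the anaphase-promoting complex, rose from 0.522 and 0.612 to 2.59, 3.83 and 2.08 FPKM (log2FC 1.61, SE 0.20, adjusted p = 2.30e-04). The sterol enzymes Hmgcs1 and Sqle had log2FC of 0.96 and -0.33, the sterol-sensing receptor Nr1h3 0.48 and the zinc exporter Slc30a1 -0.47, without a call. Ndufs1 and Ndufs3, of complex I, had 0.34 and -0.94, likewise without one. Tbp, the TATA-binding protein, rose from 5.28 and 4.67 to 10.1, 13.8 and 11.3 FPKM (log2FC 1.15, SE 0.17, adjusted p = 5.40e-04).

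With all 9 libraries, LPS+MIC-1 against LPS gave 204 genes higher (2.06%) and 179 lower (1.81%). Of these, 194 and 166 were among the calls of 8 libraries, which is 95.1% and 92.7% of the calls over 9 and 17.3% and 14.0% of those over 8, and 0 were called the other way. LPS against control gave 0 calls over 9 libraries by limma, with 4928 of 9905 genes at an unadjusted p under 0.05 and a smallest adjusted p of 0.0777, so no gene could be classed by its LPS response. Of the LPS-raised genes that fell over 8 libraries, 33 of 846 were called lower over 9, and of those that rose further 17 of 37 were called higher. Of the LPS-lowered genes that rose it was 10 of 708. The share was larger among genes that LPS had not changed, 167 of 376 that rose and 133 of 339 that fell. This contrast was built into the comparison. LPS 2 lay at control level, so adding it shrinks the difference and widens the spread of any gene that LPS changed. The same holds for the medians of lists that LPS moved. Of the calls over 9 libraries, 163 of the higher and 111 of the lower were also called against control over 8. Over 9 libraries the median log2FC turned sign for mitosis genes (-0.83 in place of 0.15), replication genes (-0.39 in place of 0.36), effector enzyme genes (0.20 in place of -0.60) and glycolysis genes (0.22 in place of -0.31). It also did so for JAK-STAT and inflammasome genes, to 0.03 and 0.01. By list, the calls over 9 libraries included 9 higher among Nrf2 targets, 4 each among chaperones, cytokines and granule and stefin genes, and 3 in the integrated stress response. Lower were 4 p53 targets, 3 interferon-induced genes, and 2 each of oxidative phosphorylation, LXR target and macrophage identity genes. Over 9 libraries the lysosome and heat shock lists had 0 calls by limma, with 6 and 7 members lower at an unadjusted p under 0.05. Hspa1a had a log2FC of -4.25 over 9 libraries and Ccl5 of -3.53, with adjusted p = 0.0595 and 0.199. Cxcl11 was called even so (log2FC -4.46, SE 0.71, adjusted p = 0.00536), and so was Sdc1 (log2FC -3.68, SE 0.59, adjusted p = 0.00576).

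Within the LPS+MIC-1 group, library 2 deviated from libraries 1 and 3 by gene group. Over all tested genes its median difference from their mean was 0.04 on the log2 scale. It was lower in all 37 interferon-induced genes (median -0.74), in 18 of 20 cytokine genes (median -0.81), in all 16 surface activation genes (median -0.57) and in all 15 NF-kB genes (median -0.42). It was higher in all 29 replication genes (median 0.76), in 26 of 27 mitosis genes (median 0.78) and in 25 of 28 Nrf2 targets (median 0.40). Il6 deviated by -1.90, Il1b by -2.98, Nqo1 by 1.51 and Ccnb2 by 0.83. Without library 2, 2241 genes were called in place of 2310. Control 2 also stood off, with an SD of log2 differences of 0.375 and 0.391 to control 1 and 3, which differed by 0.279. Over 8 libraries the LPS group holds no library 2. Whether the libraries 2 of the treatments belong together is not given by the columns.

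**Figure D5:**
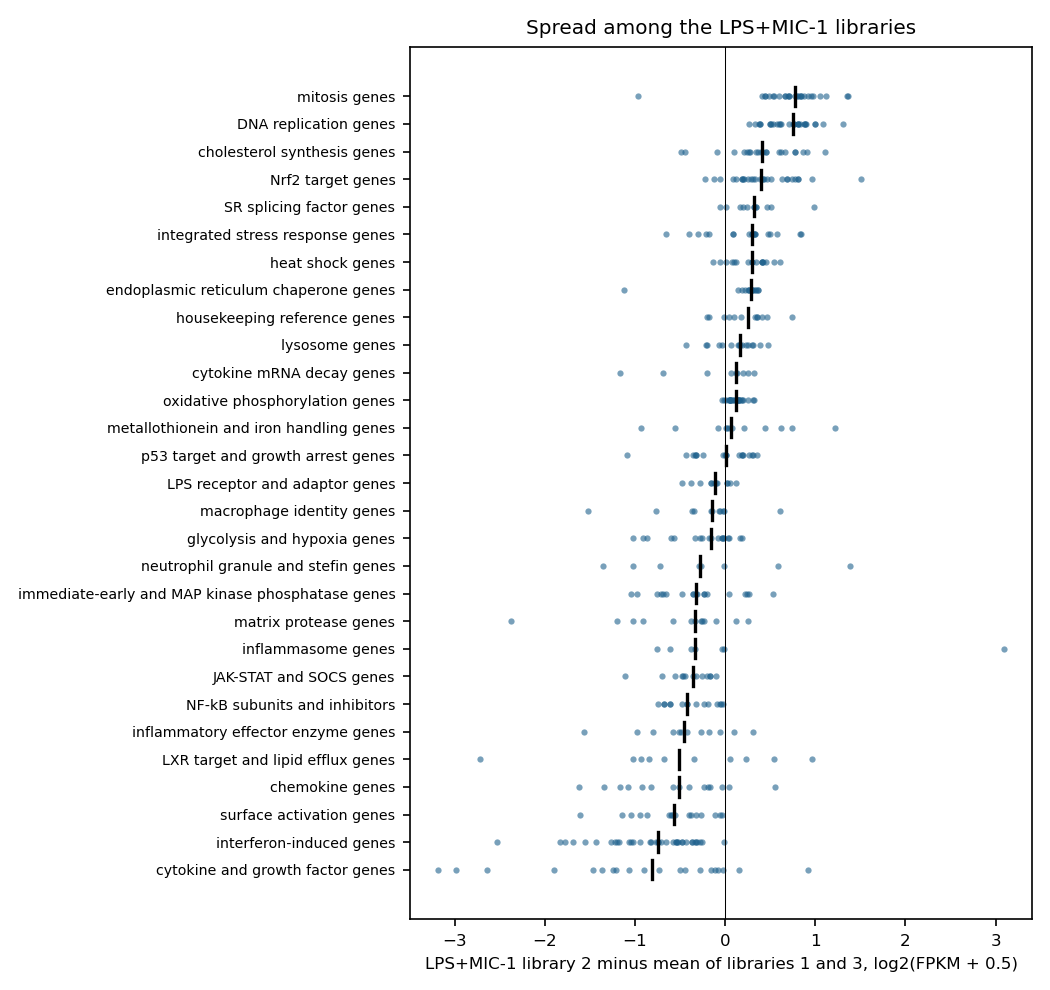
Each point is a tested list gene, placed by the value of LPS+MIC-1 2 minus the mean of LPS+MIC-1 1 and 3 on the log2(FPKM + 0.5) scale, and the black bar is the median of each list. Cytokine and interferon-induced genes lie to the left of 0, with medians of -0.81 and -0.74, and replication and mitosis genes to the right, with medians of 0.76 and 0.78.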

How the data were processed

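RNA-seq of RAW264.7 cells was compared over 9 libraries, 3 each of control, LPS and LPS+MIC-1. The deposited values are FPKM per gene, which the authors made with Kallisto 0.45.0 and tximport 1.8.0 against RefSeq mm9; no counts were used here. Columns matched to no sample or group numbered 0. Deposited tables of the authors' own comparisons (fold changes and p-values) and the liver samples were not used. The study's own analysis took 8 macrophage libraries, of which 2 were LPS. Which LPS library it left out is not stated there. Genes with mean FPKM above 1 were tested on log2(FPKM + 0.5), which understates changes of low genes, with limma 3.58.1 in R 4.3.3 (empirical Bayes with trend, Benjamini-Hochberg adjustment), all 3 groups sharing 1 estimate of spread. Control libraries 1 to 3, LPS 1 and 3 and LPS+MIC-1 1 to 3 gave the first values, and all 9 the second. Nothing in the labels says that replicates were separate cultures, so p-values measure the spread between these libraries, which may be technical. The fit was tested on simulated data. Python 3.11.15, pandas 2.3.3, numpy 2.4.6 and matplotlib 3.10.9 were used.

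The members, the 29 gene lists (485 of 530 genes tested) and the tests were chosen with earlier results of these data known. The naming rule took the 10 largest falls and the 10 largest rises among called genes with separate ranges and a mean of at least 10 FPKM in the higher group, the 5 genes of each class with the largest response to LPS, the first 3 measured genes of each list with its largest called fall and rise, and Tnf, Il6, Il1b, Nos2, Nfe2l2 and Keap1. A few genes that the rule picks are not reported here. Lengths, known for 98.4% of tested genes, and mm9 positions came from the GENCODE mouse annotation, and promoter sequences from RefSeq. Alternatives covered the pseudocount, filter, scaling, trend, thresholds, groups fitted, averaging of the close libraries 1 and 3 and each library left out.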

Additional observations from a re-analysis of the deposited data

How the results depend on the processing

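Over 8 libraries the 2310 genes called became 3843 with equal sums, 5391 with no minimum log2FC and 383 with all 9 libraries, and were 1557 to 2510 under the other settings. With each library left out they were 2110 to 2292. The 1121 genes higher became 737 with a mean FPKM above 5, 3573 with equal sums, 2637 with no minimum log2FC, 736 with the close libraries 1 and 3 of each treatment averaged, and 204 over 9 libraries (1044 to 1106 with a library left out). The 1189 lower became 270, 2754 and 179 with equal sums, no minimum log2FC and 9 libraries (1051 to 1189). In the order equal sums, no minimum log2FC and averaged libraries, the 846 LPS-raised genes that fell became 170, 2099 and 558 (723 to 850 with a library left out) and the 400 that stayed became 158, 753 and 180 (291 to 487). The 37 that rose further became 141 with no minimum log2FC and 15 with averaged libraries (21 to 43). The 708 LPS-lowered genes that rose became 2882 with equal sums and 1904 with no minimum log2FC (665 to 728). The 586 that stayed became 996 with no minimum log2FC and 241 with averaged libraries (430 to 725). The 4 that fell further became 13 with quantile normalization, 103 with no minimum log2FC and 2 with averaged libraries (4 to 7). All 6 classes were at 0 over 9 libraries by limma, where LPS against control gave 0 calls, and without LPS 2 they were 846, 400, 37, 708, 586 and 4, as over 8 libraries.

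Over 9 libraries the 383 calls became 823 at an adjusted p below 0.05, 617 with no minimum log2FC and 5 with only the LPS and LPS+MIC-1 libraries in the fit. With a library left out they were 109, without LPS+MIC-1 3, to 2310, without LPS 2; without LPS+MIC-1 1 they were 110.0 and without any of the other libraries 162 to 264. The 204 higher became 408 at an adjusted p below 0.05 and 3 with only those groups (62 to 1121). The 179 lower became 49 with equal sums, 415 at an adjusted p below 0.05, 312 with no minimum log2FC and 2 with only those groups (47 to 1189). Averaging the close libraries gave 0 calls by limma, with 1355 genes at an unadjusted p under 0.05 and a smallest adjusted p of 0.118. Ctsd had a log2FC of 0.13 over 8 libraries with quantile normalization, and Mcm10 had -0.044 over 9 libraries, with a range of -0.83 to 1.27 when a library was left out, the highest without LPS 2. Of 151 named genes over 8 libraries, 117 kept direction and side of the threshold with equal sums and 92 with all 9 libraries. The cause of these changes was not tested. Classes could not be computed with only the LPS and LPS+MIC-1 libraries, since they need control. No paired analysis was possible because the columns carry no replicate number. Depth is known only as an estimate, so low FPKM values have no counting error here.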
